A study of Mus musculus with 2 samples.

Results

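Mybpc1, Mybpc2 and Mybph encode slow and fast myosin-binding protein C and myosin-binding protein H. These are 3 of the 15521 annotated genes with a read in long-read RNA sequencing of mouse gastrocnemius, a mostly fast-twitch calf muscle. Their transcript models were taken by gene name: 286 of 94598 models in replicate 2 and 330 of 75228 in replicate 1, spike-ins included. The genes were chosen by their read counts in these libraries, which were known beforehand: the high level of Mybpc2 and the difference of Mybpc1 between the libraries. Levels and differences are therefore given as descriptions, without tests. The samples form 1 group, biological replicates 2 and 1 of gastrocnemius from female B6CASTF1/J mice (a C57BL/6J by CAST cross) aged 25 days, each library made from 2 µg of total RNA. The labels carry different animal numbers but a single donor record, so differences between the libraries may come from the animal, the dissection or the library, and no conditions are contrasted.

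Myosin-binding proteins sit in regularly spaced stripes on the thick filament, where they bind the myosin rod, titin and, through their N-terminal ends, actin and the myosin heads. They are built from immunoglobulin and fibronectin domains, and phosphorylation of the N-terminal region tunes how myosin heads are released for contraction. Slow myosin-binding protein C is found in slow and fast fibres and is known for many splice forms that differ near its N terminus and at its extreme C terminus, while the fast form marks fast fibres and the H form is a short relative without most of the N-terminal domains.

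Replicate 2 held 1557594 mouse reads and replicate 1 held 1069771. Levels are in CPM, the reads of a gene scaled to the mouse reads of its library, and a count of 0 allows up to 1.93 CPM for replicate 2 and up to 2.80 CPM for replicate 1. Chains called complete are those whose deposited class is Known (annotated), NIC (new combination of splice sites) or NNC (new splice sites), as opposed to fragments of a chain and unspliced reads. They made up 78.4% of all mouse reads of replicate 2 and 87.1% of replicate 1, and the mean number of exons per read was 7.63 and 11.4. The tissue label was set against marker genes. The 8 skeletal muscle markers summed to 236157 and 318220 CPM (179747 and 160296 CPM without Atp2a1), while of 6 cardiac markers Tnni3, Nppa, Nppb, Myl7 and Ryr2 had 0 reads and Myh6 stood at 2.57 and 2.80 CPM. Intervals below are exact 95% intervals (Clopper-Pearson for shares, Poisson for levels, conditional binomial for ratios). They cover counting error only, since the tables carry no molecular identifiers.

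Fast Mybpc2 was the most read of these genes in both libraries. Mybpc2 (ENSMUSG00000038670.11, chromosome 7, 44501699 to 44524656, minus strand, mm10) had 4513 reads in replicate 2 and 5716 in replicate 1, or 2897 CPM (2813 to 2983) and 5343 CPM (5206 to 5484), a mean of 4120 ± 1729 CPM (SD, n = 2). It ranked 33 in replicate 2 and 18 in replicate 1 among the 8892 genes with 10 or more reads. Slow Mybpc1 (ENSMUSG00000020061.17, chromosome 10, 88518279 to 88605152, minus strand) had 1348 and 2908 reads, or 865 CPM (820 to 913) in replicate 2 and 2718 CPM (2620 to 2819) in replicate 1, a mean of 1792 ± 1310 CPM (SD, n = 2). Mybph (ENSMUSG00000042451.12, chromosome 1, 134193448 to 134201232, plus strand) was the least read, at 202 and 154 reads, or 130 CPM (112 to 149) in replicate 2 and 144 CPM (122 to 169) in replicate 1, a mean of 137 ± 10.1 CPM (SD, n = 2). The intervals of the libraries overlapped for Mybph and lay apart for the C genes.

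**Figure D1:**
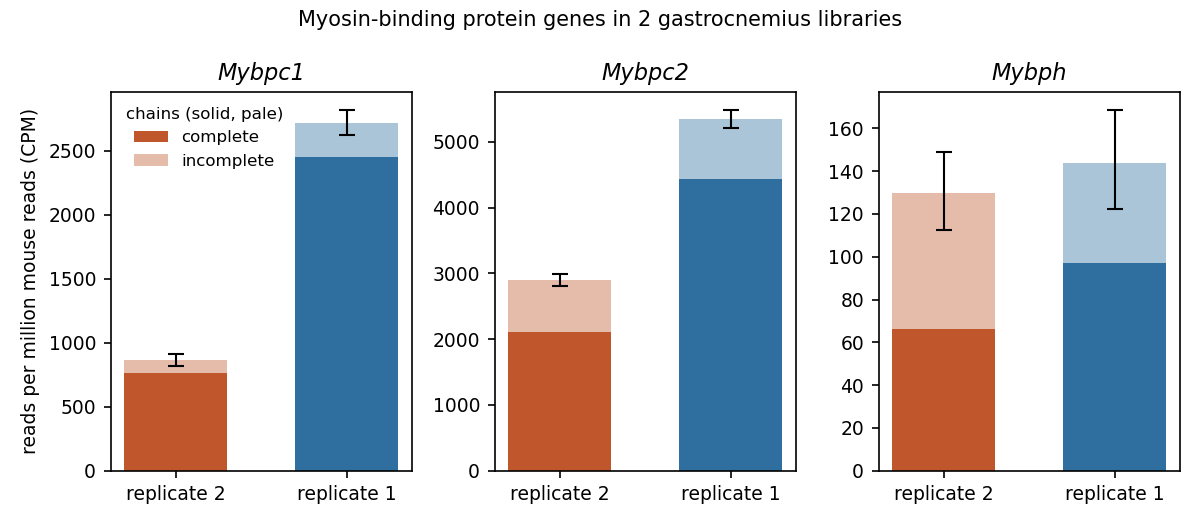
CPM of each gene in replicate 2 (left bar) and replicate 1 (right bar), with complete chains solid, other chains pale, and exact Poisson 95% intervals of the total. Mybpc1 stood at 865 and 2718 CPM and Mybpc2 at 2897 and 5343 CPM, while the intervals of Mybph overlapped; the 3 vertical axes differ in scale.

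The order of the genes was the same when CPM was divided by chain length. Each long read was counted once, so this division is a rescaling and not a correction for length. Per kilobase of the most read complete chain, the level was 802 and 1480 CPM per kb for Mybpc2 (replicate 2, then replicate 1), 220 and 692 CPM per kb for Mybpc1, and 70.9 and 78.8 CPM per kb for Mybph. Of the 6063 reads that the family held in replicate 2, Mybpc2 took 74.4% (73.3 to 75.5), against 65.1% (64.1 to 66.1) of 8778 in replicate 1. Mybpc1 took 22.2% (21.2 to 23.3) in replicate 2 and 33.1% (32.1 to 34.1) in replicate 1. Mybph took 3.33% (2.89 to 3.81) in replicate 2 and 1.75% (1.49 to 2.05) in replicate 1. There were thus 3.35 Mybpc2 reads for each Mybpc1 read in replicate 2 and 1.97 in replicate 1. The cardiac gene Mybpc3 and the H-like gene Mybphl had 0 reads in both libraries. The sources used here do not say how reads that fit more than 1 paralog were placed.

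Mybpc1 was 3.14-fold lower in replicate 2 than in replicate 1, a log2 ratio of -1.65 (-1.75 to -1.56). The log2 ratio of Mybpc2 was -0.88 (-0.94 to -0.83). For Mybph it was -0.15 (-0.46 to 0.16) and turned to 0.035 with DESeq2 size factors, so it had no direction that held. Of the 3 genes, 1 was 2-fold or more lower in replicate 2, where 15.7% of the 8892 genes were, and 0 were 2-fold or more higher, where 9.6% were. As these ratios were known when the genes were chosen, nothing is read from that count. Across all 8892 genes the median log2 ratio was -0.18 (quartiles -0.73 and 0.41). In bulk tissue, fewer cells of a type and less RNA per cell cannot be told apart.

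The difference between the libraries moved with transcript length, and the C genes are long. The most read complete chains had 3929 bases for Mybpc1, 3611 for Mybpc2 and 1828 for Mybph. Among 2008 genes within 20% of the length of Mybpc1 the median log2 ratio was -0.54 (quartiles -1.03 and -0.06), and 6.47% of them lay below Mybpc1. Among 2103 genes near the length of Mybpc2 the median was also -0.54, and 29.8% lay below it. With a smoothed trend on length taken off, the log2 ratio was -1.09 for Mybpc1, -0.35 for Mybpc2 and -0.12 for Mybph.

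**Figure D2:**
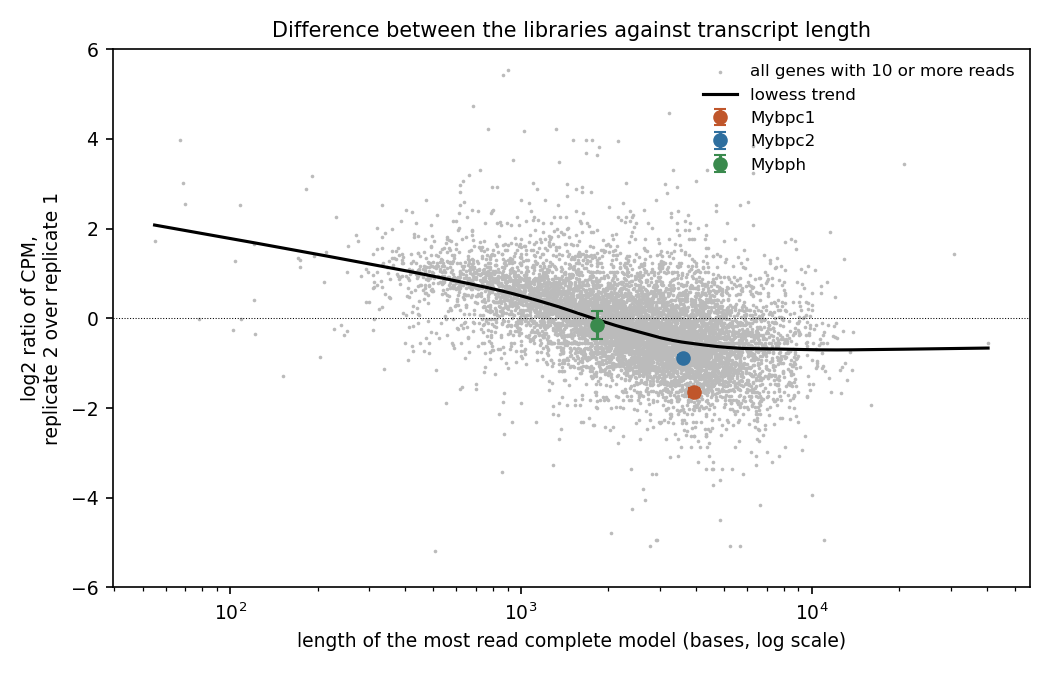
Log2 ratio of CPM, replicate 2 over replicate 1, against the length of the most read complete model for 8752 genes (grey; 2 lie outside the axis), with the smoothed trend (black line) and the 3 genes with exact 95% intervals. Mybpc1, at -1.65, lay farther below the trend than Mybpc2, at -0.88, and Mybph, at -0.15, lay near it.

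Read ends differed between the genes and the libraries. For Mybpc1, 88.4% of reads in replicate 2 and 91.2% in replicate 1 reached the first exon of its most read chain. For Mybpc2 it was 72.5% and 82.9%. For Mybph, the shortest of the transcripts, it was 50.5% and 68.8%. Complete chains held 88.0% (86.1 to 89.7) and 90.3% (89.2 to 91.4) of Mybpc1 reads, 72.8% (71.5 to 74.1) and 83.1% (82.1 to 84.1) of Mybpc2 reads, and 51.0% (43.9 to 58.1) and 67.5% (59.5 to 74.8) of Mybph reads, in replicate 2 and replicate 1. Some fragments recurred. A chain of the last 3 exons of Mybpc2 had 282 reads in replicate 2 and 72 in replicate 1, while a 17-exon Mybpc2 chain had 118 and 162. Single-exon reads in the incomplete class numbered 44 and 0 for Mybph, and 14 reads in replicate 1 against 0 in replicate 2 were unspliced Mybph reads of the genomic class.

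**Figure D3:**
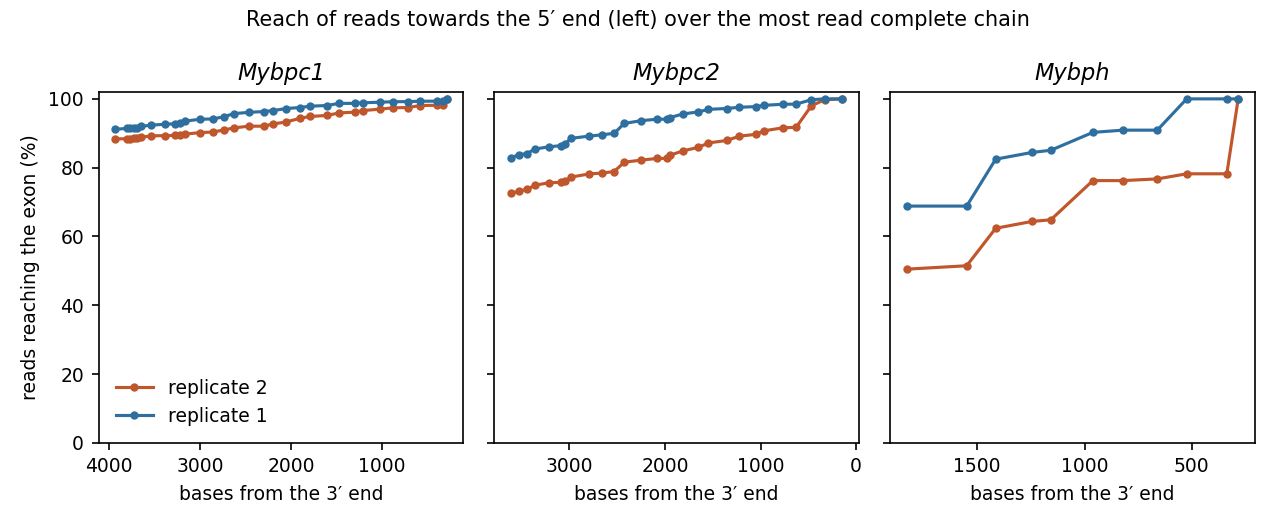
Share of each gene's reads that extend at least to each exon of its most read complete chain, against distance from the 3′ end in bases (5′ end on the left), for replicate 2 and replicate 1. Reads of Mybpc1 reached the first exon in 88.4% and 91.2% of cases, those of Mybph in 50.5% and 68.8%.

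Most complete Mybpc1 reads followed exon chains that the GENCODE M21 annotation does not hold. Annotated chains took 22.3% (20.0 to 24.8) of 1186 complete reads in replicate 2 and 1.83% (1.35 to 2.42) of 2627 in replicate 1. Over the 1663 genes with 50 or more complete reads in each library the median was 96.2% and 96.5%, and 3.79% and 1.62% of those genes had a lower share than Mybpc1. For Mybpc2 annotated chains took 94.7% (93.9 to 95.5) and 95.6% (95.0 to 96.2), and for Mybph 57.3% (47.2 to 67.0) and 65.4% (55.4 to 74.4). Mybpc1 and Mybph thus lay below the median gene in both libraries, and Mybpc2 lay near it.

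Variation in Mybpc1 was carried by a few short exons, most of them near the ends of the coding sequence. Reads that began upstream and ended downstream of an exon were counted as holding or skipping it. Of 32 internal exons, 27 had at least 5 reads each way over both libraries, the rule for an alternative exon. Just inside the rule stood 5 skipping reads and just outside it 4. By that rule 20 exons were included in over 99% of reads, and an unannotated 40-base exon near the 5′ end was in 1 of 1191 reads of replicate 2 and 5 of 2651 of replicate 1. That left 6 exons with a mean inclusion between 1% and 99%, called variable below and named by their length.

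The first variable exon, of 42 bases, lies a short way into the coding sequence. The start of the Mybpc1-202 coding sequence is printed to show where it falls. It spans the first coding exon, the constitutive exon after it, the 42-base exon and the first 30 bases of the next annotated exon (GENCODE M21 transcripts, mm10, chr10:88573500-88604925, minus strand, introns removed), with the 42-base exon in capitals.
Mybpc1-202 coding start: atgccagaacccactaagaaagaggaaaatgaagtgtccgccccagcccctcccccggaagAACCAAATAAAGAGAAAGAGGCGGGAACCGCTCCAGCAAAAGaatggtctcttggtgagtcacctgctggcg
The 39- and 36-base variable exons join the message at the point where the capitals end. They are in no annotated transcript, and their letters are not shown here.

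The 42-base exon (chromosome 10, 88582007 to 88582048) was in 80.4% (78.0 to 82.6) of 1191 spanning reads in replicate 2 and in 61.9% (60.0 to 63.7) of 2658 in replicate 1. The 39-base exon (88575842 to 88575880) was in 62.5% (59.7 to 65.3) of 1190 reads and 95.0% (94.1 to 95.8) of 2660. The 36-base exon (88575129 to 88575164) was in 60.8% (58.0 to 63.6) of 1191 and 87.4% (86.1 to 88.7) of 2662. The annotated exon was thus higher in replicate 2, and the unannotated pair was lower in replicate 2, each with intervals that did not overlap. All of these lengths are multiples of 3, so each exon keeps the reading frame. Mean inclusion was 71.1% ± 13.1 for the 42-base exon, 78.8% ± 23.0 for the 39-base exon and 74.1% ± 18.8 for the 36-base exon (SD, n = 2 each).

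The 54-base exon (88537466 to 88537519), annotated in Mybpc1-206 alone and also a multiple of 3, was rare and alike in the libraries. It was in 4.18% (3.15 to 5.44) of 1267 reads of replicate 2 and 4.10% (3.40 to 4.90) of 2826 in replicate 1. It is printed with 15 bases of the neighbouring exons on each side, the exon in capitals (Mybpc1-206, mm10, chr10:88537466-88537519, minus strand).
54-base exon: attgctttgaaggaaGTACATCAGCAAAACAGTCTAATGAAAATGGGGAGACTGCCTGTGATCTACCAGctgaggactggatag

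The last variable exons set the C-terminal end of the protein. The 59-base exon (88521277 to 88521335, annotated in Mybpc1-201) was in 25.6% (23.2 to 28.0) of 1303 reads of replicate 2 and 45.0% (43.1 to 46.8) of 2852 in replicate 1. The 43-base exon (88519901 to 88519943, annotated in Mybpc1-201 and Mybpc1-202) was in 93.8% (92.3 to 95.0) of 1304 and 98.2% (97.6 to 98.6) of 2853. Neither length is a multiple of 3, and each combination brings another stop codon into frame. The annotated endings are printed from the last 30 bases of the exon they share (chr10:88522967-88523153, mm10, minus strand), with the stop codon in capitals.
59- and 43-base exons in (Mybpc1-201): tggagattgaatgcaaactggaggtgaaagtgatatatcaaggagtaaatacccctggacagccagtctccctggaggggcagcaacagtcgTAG
43-base exon alone (Mybpc1-202): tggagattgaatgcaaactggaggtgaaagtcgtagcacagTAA
The coding sequence runs 62 bases past the shared exon in the longer annotated ending and 11 bases in the shorter one. Reads with neither exon join the shared exon straight to the usual last exon, and joining the annotated exon sequences in that way keeps a frame open for 98 bases, to a stop in the last exon. Such reads numbered 74 in replicate 2 and 44 in replicate 1, all with the last exon of Mybpc1-202 rather than that of Mybpc1-205. Of reads spanning all 6 variable exons, the shorter annotated ending was in 68.2% (65.4 to 70.8) and 53.5% (51.6 to 55.4), the longer one in 25.5% (23.0 to 28.1) and 44.8% (42.9 to 46.7), and the ending with neither exon in 6.28% (4.96 to 7.82) and 1.68% (1.22 to 2.24).

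Of the 27 alternative exons, 4 differed by 10 percentage points or more between the libraries: the 42-, 39-, 36- and 59-base exons. Over 1860 alternative exons of 972 genes with 20 or more spanning reads in each library, 12.7% did so, and the median absolute difference was 2.04 percentage points. Mybpc1 was 1 of 3 genes with 4 or more such exons. The gene was chosen with these libraries' reads in view, and exons of 1 gene are read from the same molecules, so nothing is read from these counts.

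**Figure D4:**
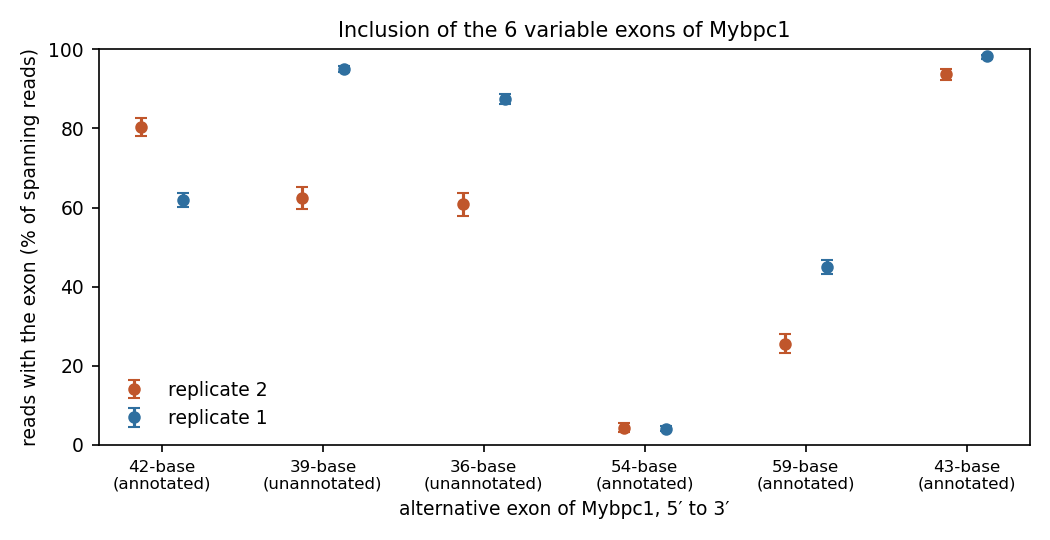
Share of spanning reads that hold each of the 6 variable Mybpc1 exons, 5′ to 3′, in replicate 2 (left point) and replicate 1 (right point), with exact 95% intervals. The 42-base exon was higher in replicate 2 (80.4% and 61.9%), the 39-, 36- and 59-base exons were lower in it, and the 54-base exon was at 4.18% and 4.10%.

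Whole reads showed which exons travelled together. All 6 variable exons were spanned by 1178 reads in replicate 2 and 2625 in replicate 1. Of 64 possible combinations 27 were seen, 20 in replicate 2 and 24 in replicate 1, with 17 in both. The 8 with the highest mean share took 91.9% and 93.7% of the reads. The combination with every variable exon but the 54-base one held 19.2% (17.0 to 21.6) of them in replicate 2 and 34.4% (32.5 to 36.2) in replicate 1. The same combination without the 59-base exon held 26.1% (23.6 to 28.7) and 19.1% (17.6 to 20.6). These leading forms are both outside the annotation, and they differ in the C-terminal end alone.

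The annotated form Mybpc1-202, with the 42- and 43-base exons, was common in one library and rare in the other. It held 23.0% (20.6 to 25.5) of the spanning reads in replicate 2 and 1.79% (1.32 to 2.37) in replicate 1. The form with the 43-base exon alone likewise held 10.9% (9.15 to 12.8) of these reads in replicate 2 and 2.59% (2.02 to 3.27) in replicate 1. The reverse held for the form with the 39-, 36- and 43-base exons, at 6.11% (4.81 to 7.64) in replicate 2 and 21.7% (20.2 to 23.3) in replicate 1. Adding the 59-base exon to that form gave 0.934% (0.467 to 1.66) in replicate 2 and 7.12% (6.17 to 8.18) in replicate 1. The pattern of the other long annotated form, Mybpc1-201, was seen in 3 and 2 reads. All 6 exons together stood at 2.21% (1.45 to 3.22) and 2.32% (1.78 to 2.98), with overlapping intervals.

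**Figure D5:**
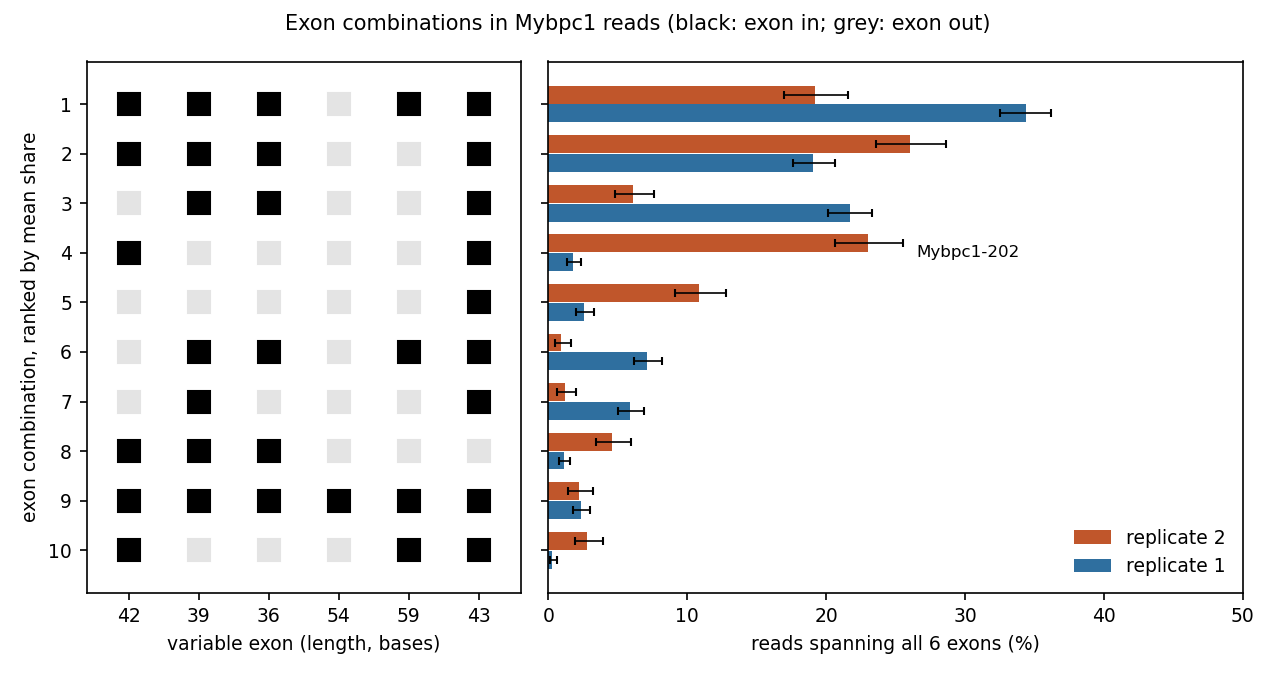
The 10 Mybpc1 exon combinations with the highest mean share. Left, variable exons in 5′ to 3′ order, black where in; right, share of reads spanning all 6 exons in replicate 2 (upper bar) and replicate 1 (lower bar) with exact 95% intervals. Combination 1 held 19.2% and 34.4%, and combination 4, annotated as Mybpc1-202, held 23.0% and 1.79%.

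The 36-base exon appeared in no read that lacked the 39-base exon. There were 0 such reads of 440 in replicate 2, with an exact upper limit of 0.835%, and 0 of 130 in replicate 1, with an upper limit of 2.80%. In reads with the 39-base exon it was in 97.3% (95.8 to 98.3) of 738 and 91.9% (90.8 to 92.9) of 2495. This pair was described after its values were seen. The 42-base exon, by contrast, occurred with and without the others. Among the first 3 variable exons, the full set was in 53.7% (50.8 to 56.6) of reads in replicate 2 and 57.9% (56.0 to 59.8) in replicate 1, close in both. The 42-base exon alone was in 26.1% (23.7 to 28.8) and 2.25% (1.72 to 2.89), and the 39- and 36-base pair without it in 7.22% (5.80 to 8.85) and 29.4% (27.7 to 31.2). None of the 3 was in 11.2% (9.46 to 13.1) and 2.70% (2.12 to 3.40).

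Inclusion at the C-terminal end differed with the exons at the N-terminal end of the same read, in both libraries. The 59-base exon was in 30.2% (27.3 to 33.3) of replicate 2 reads with the 42-base exon and 6.47% (3.66 to 10.4) of those without it, and in 60.2% (57.7 to 62.6) and 20.0% (17.6 to 22.7) in replicate 1. By the 36-base exon the shares were 36.8% (33.2 to 40.4) with it and 8.04% (5.73 to 10.9) without it in replicate 2, and 50.5% (48.4 to 52.6) and 5.72% (3.48 to 8.79) in replicate 1. The 36-base exon in turn was in 66.9% (63.8 to 69.9) of reads with the 42-base exon and 36.6% (30.4 to 43.2) of those without it in replicate 2, and in 93.8% (92.5 to 94.9) and 77.0% (74.2 to 79.5) in replicate 1. These are the pairs with inclusion between 5% and 95% in both libraries, and every one had the same direction in both.

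The joint pattern was described for the 4 sets of N-terminal exons with 50 or more reads in each library. The 59-base exon was in 40.0% (36.1 to 43.9) of replicate 2 reads with the 42-, 39- and 36-base exons, in 12.9% (6.64 to 22.0) of those with the 39- and 36-base exons, in 10.7% (7.49 to 14.7) of those with the 42-base exon alone and in 2.27% (0.471 to 6.50) of those with none. In replicate 1 the same groups stood at 63.4% (60.9 to 65.8), 25.1% (22.1 to 28.3), 15.3% (7.22 to 27.0) and 2.82% (0.343 to 9.81). The full set was highest in both libraries, and the intervals of the sets with the 42-base exon alone and with the 39- and 36-base pair overlapped. The sets with fewer reads were the 39-base exon alone, with the 59-base exon in 1 of 15 reads and 5 of 160, and the 42- and 39-base exons, with 0 of 5 and 3 of 42. Between the libraries, the intervals of the full set and of the 39- and 36-base pair did not overlap, while those of the other sets overlapped.

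Shares of other exons by the rare 54-base exon are given here with values already seen. Nearly all reads with it also held the 39-base exon, 47 of 48 in replicate 2 and 103 of 105 in replicate 1. The shares below were not split by the set of N-terminal exons, and the part of that set in them was not tested. Of the 48 reads with the 54-base exon in replicate 2, 26 held the 59-base exon, 54.2% (39.2 to 68.6), against 24.3% (21.9 to 26.9) of 1130 reads without the 54-base exon. In replicate 1 it was 65.7% (55.8 to 74.7) of 105 reads against 44.0% (42.0 to 45.9) of 2520. The 43-base exon ran the other way. It was in 66.7% (51.6 to 79.6) of reads with the 54-base exon and 94.8% (93.3 to 96.0) of those without it in replicate 2, and in 89.5% (82.0 to 94.7) and 98.7% (98.1 to 99.1) in replicate 1. Both differences had the same sign in the libraries, with intervals that did not overlap.

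The 7 exon combinations with the highest mean shares were also the 7 most read complete intron chains over both libraries, in the same order. From rank 8 on the orders differed. There were 132 complete Mybpc1 chains, 27 of them in both libraries. The most read over both libraries together had 32 exons and 17.6% (15.5 to 19.9) of complete reads in replicate 2 and 32.7% (30.9 to 34.6) in replicate 1. The next, with 31 exons, had 24.5% (22.0 to 27.0) and 18.3% (16.8 to 19.8), and its deposited class was NNC in replicate 2 and NIC in replicate 1, although the chain was identical. Within replicate 2 the 31-exon chain came first, ahead of Mybpc1-202 at 21.9% (19.6 to 24.4), and within replicate 1 the chain with the 39-, 36- and 43-base exons, at 551 reads, came after the 32-exon chain, ahead of the 31-exon chain at 481. Reads with at least 1 splice site outside the annotation made up 63.7% (60.9 to 66.5) and 95.1% (94.2 to 95.8) of complete Mybpc1 reads. Such sites all lay within 10 bases of an annotated site in 11 of those 756 reads in replicate 2 and 2 of 2497 in replicate 1, so small shifts accounted for few of them. The deposited class NNC held fewer reads, 324 and 587, so many reads with unannotated sites carried the class NIC.

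Mybpc2 showed almost no splicing variation. Of its 26 internal exons, 2 met the rule for an alternative exon, one of 118 and one of 30 bases, and both were included in over 99.7% of spanning reads in both libraries. The annotated 28-exon chain Mybpc2-201 took 94.7% (93.9 to 95.5) of 3286 complete reads in replicate 2 and 95.6% (95.0 to 96.2) of 4750 in replicate 1. The remaining 138 chains were each rare, and the highest share among the next 4 was 0.578% in a library. Unannotated splice sites were in 5.02% (4.30 to 5.82) and 4.08% (3.54 to 4.69) of complete reads. In 134 of these 165 reads and 153 of 194 every such site lay within 10 bases of an annotated one, unlike in Mybpc1.

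Mybph had a pair of acceptor sites at its last exon. None of its 9 internal exons was alternative by the rule. Of spliced reads, 36.1% (28.6 to 44.1) of 158 in replicate 2 and 25.0% (18.1 to 33.0) of 140 in replicate 1 used an acceptor 3 bases upstream of the annotated one. The annotated acceptor took 62.7% (54.6 to 70.2) and 72.1% (63.9 to 79.4), and the intervals of the libraries overlapped for both sites. The site lies after the stop codon at 134200409 to 134200411, in the 3′ untranslated part, so the choice does not alter the protein. Its surroundings are printed from Mybph-202, which keeps this intron (mm10, chr1:134200930-134200959, plus strand); the capitals are the 3 bases between the acceptors, and each acceptor follows the letters AG.
Mybph last acceptor: cactatctcttctagCAGcttggtcacata
As whole chains, annotated Mybph-201 took 57.3% (47.2 to 67.0) of 103 complete reads in replicate 2 and 65.4% (55.4 to 74.4) of 104 in replicate 1, and the chain with the upstream acceptor 35.9% (26.7 to 46.0) and 25.0% (17.0 to 34.4). Of 17 complete Mybph chains 3 were in both libraries.

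Other genes of the thick filament gave a mixed picture. Of 22 listed genes 20 had 10 or more reads, with a median log2 ratio of -0.53 beside -0.18 over all genes, and with the length trend taken off the median was -0.08. In replicate 2, 2 were 2-fold or more higher, where 9.6% of all 8892 genes were. These were the slow regulatory and essential light chain genes Myl2 (3.20) and Myl3 (3.52). Another 6 were 2-fold or more lower, where 15.7% of all genes were. Among them were the fast heavy chain genes Myh1 (-2.35) and Myh4 (-1.04), the M-band genes Myom2 (-1.26) and Myom3 (-1.14), and the cytoskeletal linker gene Obsl1 (-2.78). In replicate 2 Obsl1 stood at the 1.93 CPM that a count of 0 allows, on 3 reads against 16 in replicate 1. Myom3 rested on 19 and 29 reads. With the length trend taken off, Myh1 was at -1.68 and Obsl1 at -2.61, while Myh4, Myom2 and Myom3 were at -0.36, -0.62 and -0.47. The list was chosen with earlier results known, so nothing is read from the counts of genes past 2-fold. Titin (Ttn), the scaffold that myosin-binding protein C binds, was at -0.76, the myosin chaperone gene Unc45b at -0.77 and the methyltransferase gene Smyd1 at -0.83. The slow heavy chain gene Myh7 was at 0.96 and Myh2 at -0.74, or 1.64 and -0.07 with the length trend taken off. The fast light chain genes Myl1 and Mylpf were at 0.87 and 0.72. Myom1 was at -0.31, Trim54, Trim55 and Trim63 at -0.01, -0.22 and 0.0049, and Hsp90aa1 at 0.0055.

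Markers of fibre type and of other cells also differed between the libraries, in both directions. The 13 slow fibre markers summed to 9219 CPM in replicate 2 and 2436 CPM in replicate 1. Of 12 with 10 or more reads, 8 were 2-fold or more higher in replicate 2 and 0 were 2-fold or more lower. Over all 8892 genes these shares were 9.6% and 15.7%, which apply to the marker counts below too. By sign, 9 of the 12 were higher and 3 lower (Casq2, Ankrd2 and Csrp3), with a median log2 ratio of 2.17. Levels of all 13 ran from Myl6b at 0.788 CPM to Tnnt1 at 1818 CPM on average. Slow Mybpc1 thus stood lower in the library where most slow markers stood higher. The 14 fast fibre markers summed to 168945 and 251230 CPM, 0 of them 2-fold higher and 4 lower, from Mylk2 at 74.2 to Atp2a1 at 107167 CPM, with a median log2 ratio of -0.03. Without Atp2a1, at 56409 and 157924 CPM, they summed to 112536 and 93306 CPM, so the sign of the difference in the sum rested on that gene. Tendon markers summed to 487 and 152 CPM (7 of 8 were 2-fold higher and 1 lower; from Prg4 at 0.642 to Fmod at 93.4 CPM), and fibroblast markers to 2550 and 4304 CPM (0 of 6 higher and 2 lower; from Pdgfra at 8.97 to Col3a1 at 1685 CPM). Without Col3a1 the fibroblast markers summed to 1845 and 1639 CPM, so the lower sum rested on that gene. By sign, 2 of the 6 fibroblast markers were higher and 4 lower. Their median log2 ratio was -0.53, and 0.08 with the length trend taken off. Sums without the highest gene were added after the values were seen. Endothelial markers summed to 30.8 and 71.0 CPM, smooth muscle markers to 47.5 and 135 CPM, and embryonic and neonatal muscle markers to 343 and 184 CPM, with Tnnt2 and Chrng at 0. Without Actc1, at 275 and 120 CPM, the embryonic and neonatal markers summed to 68.7 and 64.5 CPM. Of the 4 with 10 or more reads, 2 were 2-fold or more higher in replicate 2 and 2 were lower by sign. The part of fibre type, tissue makeup and read length in the levels and in the exon shares of the myosin-binding protein genes was not tested.

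The genes nearest to each in level over both libraries, among 13096 protein-coding genes and by distance in log2(CPM + 1), lay farther from the C genes than from Mybph. Nearest to Mybpc1 was Col3a1, a fibrillar collagen gene, at 706 CPM in replicate 2 and 2665 CPM in replicate 1, a distance of 0.30, then Pfkm at 0.73. Nearest to Mybpc2 was Pkm at a distance of 0.22, with 3090 and 4644 CPM, then Tpm2 and Des at 0.63 and 0.71. Nearest to Mybph were Hibadh, Mrpl45 and Cops7a, at distances of 0.021, 0.023 and 0.040. With 2 libraries such distances describe level and ratio alone.

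On the strand opposite to the members, the annotated antisense gene Gm48752 at the Mybpc1 locus had 8 reads in replicate 2 and 1 in replicate 1. Adora1, which overlaps Mybph on the other strand, had 2 and 6.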

How the data were processed

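The deposited tables hold, for each of 2 libraries, whole-number counts of reads per transcript model with no normalization by the authors, as the values show; the deposited notes name mm10 and GENCODE M21, and the gene models name TALON. The sources used here name no aligner, platform or version. The labels number the animals differently but give both samples 1 donor record, so the spread between the replicates may be partly technical. Gene counts were sums over models; CPM used mouse reads without spike-ins. Each log2 ratio is replicate 2 over replicate 1, after adding 0.5 reads to both counts. Models were matched by intron chain. Exon inclusion used models spanning the exon, any overlap counting as included. The length trend was a lowess fit (fraction 0.4). Named were the 3 genes, their leading chains (10 for Mybpc1, 5 for the others, described by the leading ones and counts), all alternative exons, thick filament genes with 10 or more reads and the 3 nearest genes per member. Some genes that this rule took are not reported here. The members, gene lists, tests and alternatives were chosen with earlier results of these data known, and no test was run, since the samples form 1 group. Alternatives changed scaling (TMM of edgeR 4.0.16, DESeq2 1.42.0 in R 4.3.3), read classes, pseudocount and filters, and left out each replicate. Steps were tested on simulated data in Python 3.11.15 with scipy 1.17.1, statsmodels 0.14.6, numpy 2.4.6, matplotlib 3.10.9 and pandas 2.3.3. Coordinates are 1-based. Sequences are GENCODE M21 transcripts, whose lengths equalled the sums of their annotated exons.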

Additional observations from a re-analysis of the deposited data

Results flagged for a closer look

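Reads on the strand opposite to Mybpc1, from models that the deposited tables class as antisense and that no comparison of the genes used, numbered 104 in replicate 2 and 27 in replicate 1, above the 3 reads that a count of 0 allows. They equalled 7.72% and 0.928% of the sense reads, and 103 and 27 of them had a single exon. Most lay at 2 places on chromosome 10 (mm10, plus strand). One ran at its widest from 88535134 to 88537466, with 61 and 13 reads, shared 169 bases with internal exons, and its highest coordinate is the lowest of the 54-base variable exon. The other ran from 88577023 to 88580434, with 30 and 6 reads, between the 39- and 42-base variable exons, and shared 0 bases with internal exons. The relation of these reads to the sense reads was not tested.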

How the results depend on the processing

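Scaling shifted every log2 ratio by 0.14 with TMM factors and 0.19 with DESeq2 size factors: Mybpc1 to -1.51 and -1.46, Mybpc2 to -0.75 and -0.70, and Mybph to -0.015 and, turned round, 0.035. Removing the length trend gave -1.09 for Mybpc1 and -0.35 for Mybpc2. Complete chains alone gave -1.07 for Mybpc2 and -0.56 for Mybph, and a mean of 81.7 CPM for Mybph; models with 2 or more reads alone gave 127 CPM. Over annotated models alone, mean inclusion was 97.3% for the 42-base exon, 0% for the 39-, 36- and 54-base exons, 2.65% for the 59-base and 99.6% for the 43-base exon; the unannotated exons are at 0 by construction. The 54-base exon moved to 4.04% over complete chains and to 3.74% over models with 2 or more reads, beyond an SD of 0.0554. Of all reads rather than complete reads, the leading chain held 74.2% for Mybpc2 and 36.7% for Mybph. Without either replicate, mean levels ranged from 865 to 2718 CPM for Mybpc1, 2897 to 5343 for Mybpc2 and 130 to 144 for Mybph, and inclusion was that of the replicate kept. Of the 15 exon pairs, described after seeing the data except for those reported as within 5% to 95%, 1 had opposite signs in the libraries: the 43-base exon by the 39-base exon was -8.71 percentage points with it rather than without it in replicate 2 and 0.624 in replicate 1. Of 231 alternatives tried, 153 were labelled unchanged, and 56 of the 76 that moved are exons outside the 6 variable ones. Ratios were held against the counting interval, and levels, inclusion and chain shares against the replicate SD. A value without 1 of 2 replicates always lies within that SD, so its label says nothing about stability. Exon pairs were labelled by sign alone. A ratio without one replicate could give no value. No paired analysis was possible because the samples form 1 group. Depth limits Mybph most, where shares of chains rest on 103 complete reads in replicate 2 and 104 in replicate 1.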
